A study of Mus musculus with 68 samples.

Results

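The genes described here are 71 of the 34590 gene symbols in a mouse RNA-seq table, chosen on 2 conditions. The first was a high and selective level in brain endothelial cells: a mean of 20 CPM (a gene's reads scaled to a common library total) or more, and a mean + 1 at least 4 times that of the endothelial cells of heart, kidney, lung and liver. The second was a lower level after injury: log2((subacute mean + 1)/(control mean + 1)) at -0.5 or lower in at least 2 of 3 models, epilepsy, EAE (experimental autoimmune encephalomyelitis) and stroke. Of the 165 symbols that met the first condition, 71 met the second and 94 did not. The second condition alone, whatever the organ pattern, was met by 1250 symbols. These values chose the members, so the organ pattern and the subacute levels of the 3 models are given as descriptions with no test. All 71 also carry the BBB-Enriched mark in the authors' deposited table, which marks 518 of its 37991 lines.

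The study sequenced RNA from endothelial cells purified by fluorescence-activated cell sorting (FACS), from healthy organs and from mouse models of neurological disease, with whole brain as a reference, 68 libraries in 25 groups. The healthy groups were Brain Endo, Brain Vascular, Heart Endo, Kidney Endo, Lung Endo and Liver Endo, with 2 libraries each, and Whole Brain with 4. Epilepsy, stroke and TBI (traumatic brain injury) libraries came from brain endothelial cells and EAE libraries from spinal cord endothelial cells, at stages named acute, subacute and chronic, with 3 libraries per group. Epilepsy, EAE and stroke each had 1 control group of 3 libraries for all stages, so the stages of a model share controls. TBI had a control group per stage, of 3 libraries for the acute stage and 2 each for the subacute and chronic stages. The labels of these groups give no day, strain, sex or age. They do not say whether libraries of a group came from separate animals, so p-values here measure the spread between these libraries, which may be technical.

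Brain Endo differs in kind from the other groups. Its cells came from the forebrain of adult male mice of genotype Rosa-tdTomato; VE-Cadherin-CreERT2, in which tamoxifen (100 ul of 20 mg/ml in corn oil, given before the sort) lets a Cre recombinase under the endothelial VE-cadherin promoter switch on the red marker tdTomato. The labels of the other 66 libraries give neither this genotype nor its enzymatic dissociation. The level condition of the rule rests on Brain Endo, whereas each injury group was set against its own control.

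Endothelial cells of the central nervous system form the blood-brain barrier. They are joined by tight junctions, carry few transport vesicles, import nutrients through solute carriers and return many drugs and lipids to the blood through ATP-binding cassette (ABC) pumps. The barrier state is induced and maintained by signals from neural tissue, among them Wnt ligands that act through beta-catenin and its partners of the TCF/LEF family. After injury or inflammation the barrier can become leaky, and endothelial cells change their expression of adhesion molecules, matrix proteins and transporters.

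The libraries held between 18779302 and 38758865 reads assigned to genes, of which mitochondrial ribosomal RNA took between 12.2 and 51.8%. As a check of the labels, 16 endothelial markers, Cdh5, Pecam1 and Cldn5 among them, summed to 18495 and 20521 CPM in the Brain Endo libraries and to between 192 and 271 CPM in whole brain, and none was at 0 in a sorted group. The sorts also held other vascular cells. Markers of mural cells (pericytes and smooth muscle, 16 genes) summed to 676 and 775 CPM in Brain Endo and to means of 4999.8 CPM in epilepsy controls, 5094 CPM in EAE controls and 5293 CPM in stroke controls. In these bulk samples, fewer cells of a type and less RNA per cell cannot be told apart.

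**Figure D1:**
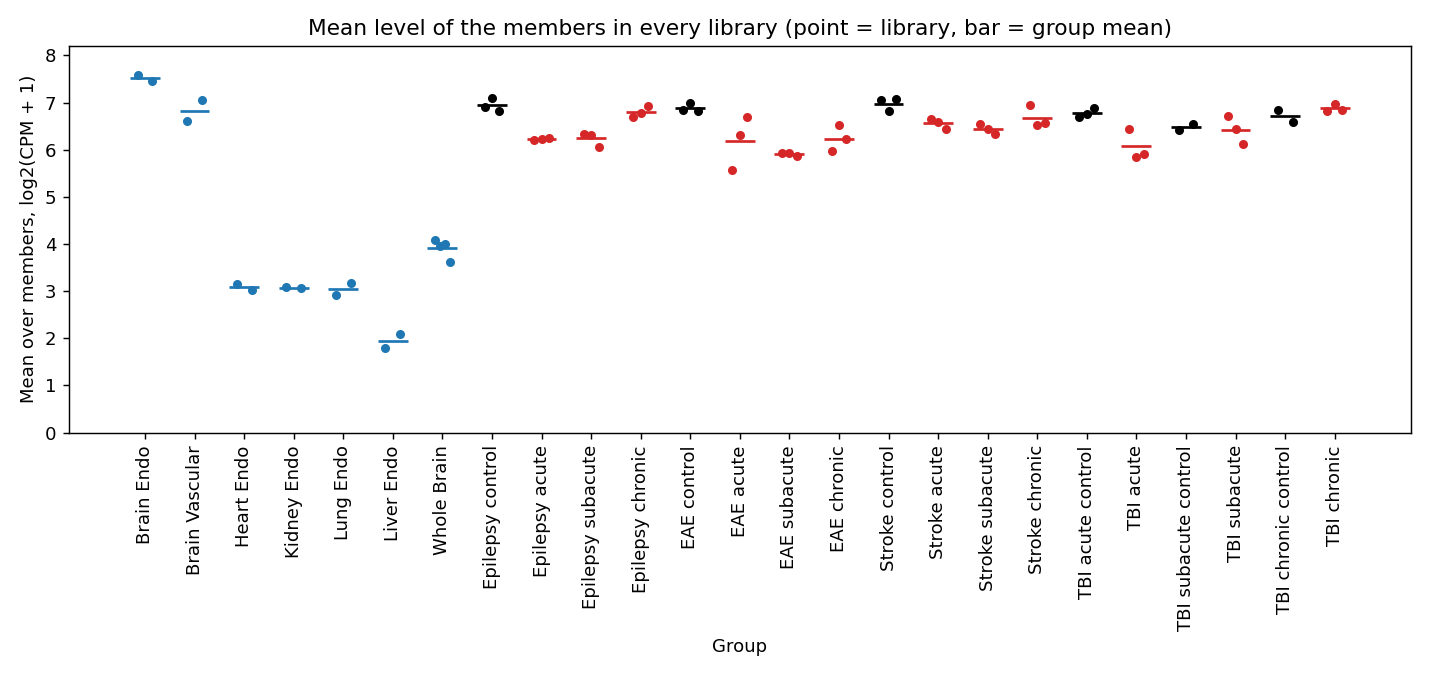
Mean of log2(CPM + 1) over the 71 members in each library (points) with group means (bars), for healthy groups (blue), controls (black) and injured groups (red). Brain Endo lies at 7.59 and 7.45, EAE control at 6.81 to 6.99 and EAE subacute at 5.87 to 5.93, while TBI acute spreads from 5.84 to 6.45.

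The plot of the mean level by library shows the members as a group. Their mean log2(CPM + 1) was 7.59 and 7.45 in the Brain Endo libraries, between 1.80 and 3.18 in the other 4 organs, and between 3.62 and 4.08 in whole brain. Control libraries of the injury models lay below Brain Endo, at 6.83 to 7.09 for epilepsy, 6.81 to 6.99 for EAE and 6.81 to 7.07 for stroke. Of the 71 members, 57 had a lower mean in epilepsy controls, 53 in EAE controls, 53 in stroke controls and 62 in Brain Vascular than in Brain Endo. Subacute libraries did not overlap with their controls, at 6.06 to 6.34 for epilepsy, 5.87 to 5.93 for EAE and 6.34 to 6.53 for stroke, which the rule fixes. Library 1 of EAE acute (5.56, against 6.30 and 6.69) and library 1 of TBI acute (6.45, against 5.84 and 5.92) stood apart from the others of their groups, so counts that use them are also given without them.

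The reduction at the subacute stage was partial: no member had a subacute mean under 1 CPM in any of the 3 models. Of the 71 members, 56 were at -0.5 or lower in subacute epilepsy, where 11.7% of all genes measured were so, 64 in EAE (13.5% of all genes) and 51 in stroke (11.6%). All 3 models met the condition for 29 members, epilepsy and EAE for 20, EAE and stroke for 15, and epilepsy and stroke for 7. Halving or more, a log2 of -1 or lower, was found for 12 members in epilepsy, 31 in EAE and 0 in stroke. The median was -0.71 in epilepsy, -0.93 in EAE and -0.57 in stroke, against 0.05, 0.03 and -0.14 for all genes and -0.11, -0.30 and -0.24 for the 94 brain-enriched genes outside the rule. All 3 subacute libraries lay below all 3 controls for 47 members in epilepsy (10.2% of all genes), 62 in EAE (18.6%) and 57 in stroke (26.4%). The rule used these contrasts, so nothing is read from these counts. In subacute stroke, mitochondrial ribosomal RNA took 33.4 to 39.4% of reads, against 23.6 to 31.0% in stroke controls. With this RNA left out of the totals, members at -0.5 or lower in subacute stroke were 13 in place of 51, and with quantile normalization 19, while those in epilepsy were 56 and 55 and those in EAE 62 and 60. The rule then kept 50 and 52 of the 71 members.

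Some members sit close to a limit of the rule. The second lowest of the 3 subacute values was -0.50 for Slco1a4 and -0.52 for St6galnac2 and Ddc, and just outside it was -0.50 for Tcf7, Fut8 and Tfrc, the transferrin receptor. The ratio to the nearest organ was 4.00 for Fry, 4.10 for Dixdc1 and 4.10 for St6galnac2, and 3.94 for Mfhas1, 3.85 for Lrrc49 and 3.77 for Slc5a6 outside. The Brain Endo mean was 20.1 CPM for Ddi1, 21.4 CPM for Wnk2 and 22.5 CPM for Gm12868, and 19.96 CPM for Gm14066, 19.9 CPM for AI661453 and 18.5 CPM for Neurl2 outside.

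By role, the members held 10 carriers, pumps and exchangers, 11 lipid handling genes and other enzymes, and 11 genes of the Wnt pathway and transcription. The rest were 12 secreted proteins and receptors, 12 genes of cytoskeleton, junction and signalling scaffolds, and 15 others. CPM carries no gene length, so levels are compared within a gene and not between genes. At the subacute stage, whose values chose the members, the medians of the 6 role groups ranged from -0.58 to -0.90 in epilepsy, -0.63 to -1.07 in EAE and -0.51 to -0.61 in stroke.

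**Figure D2:**
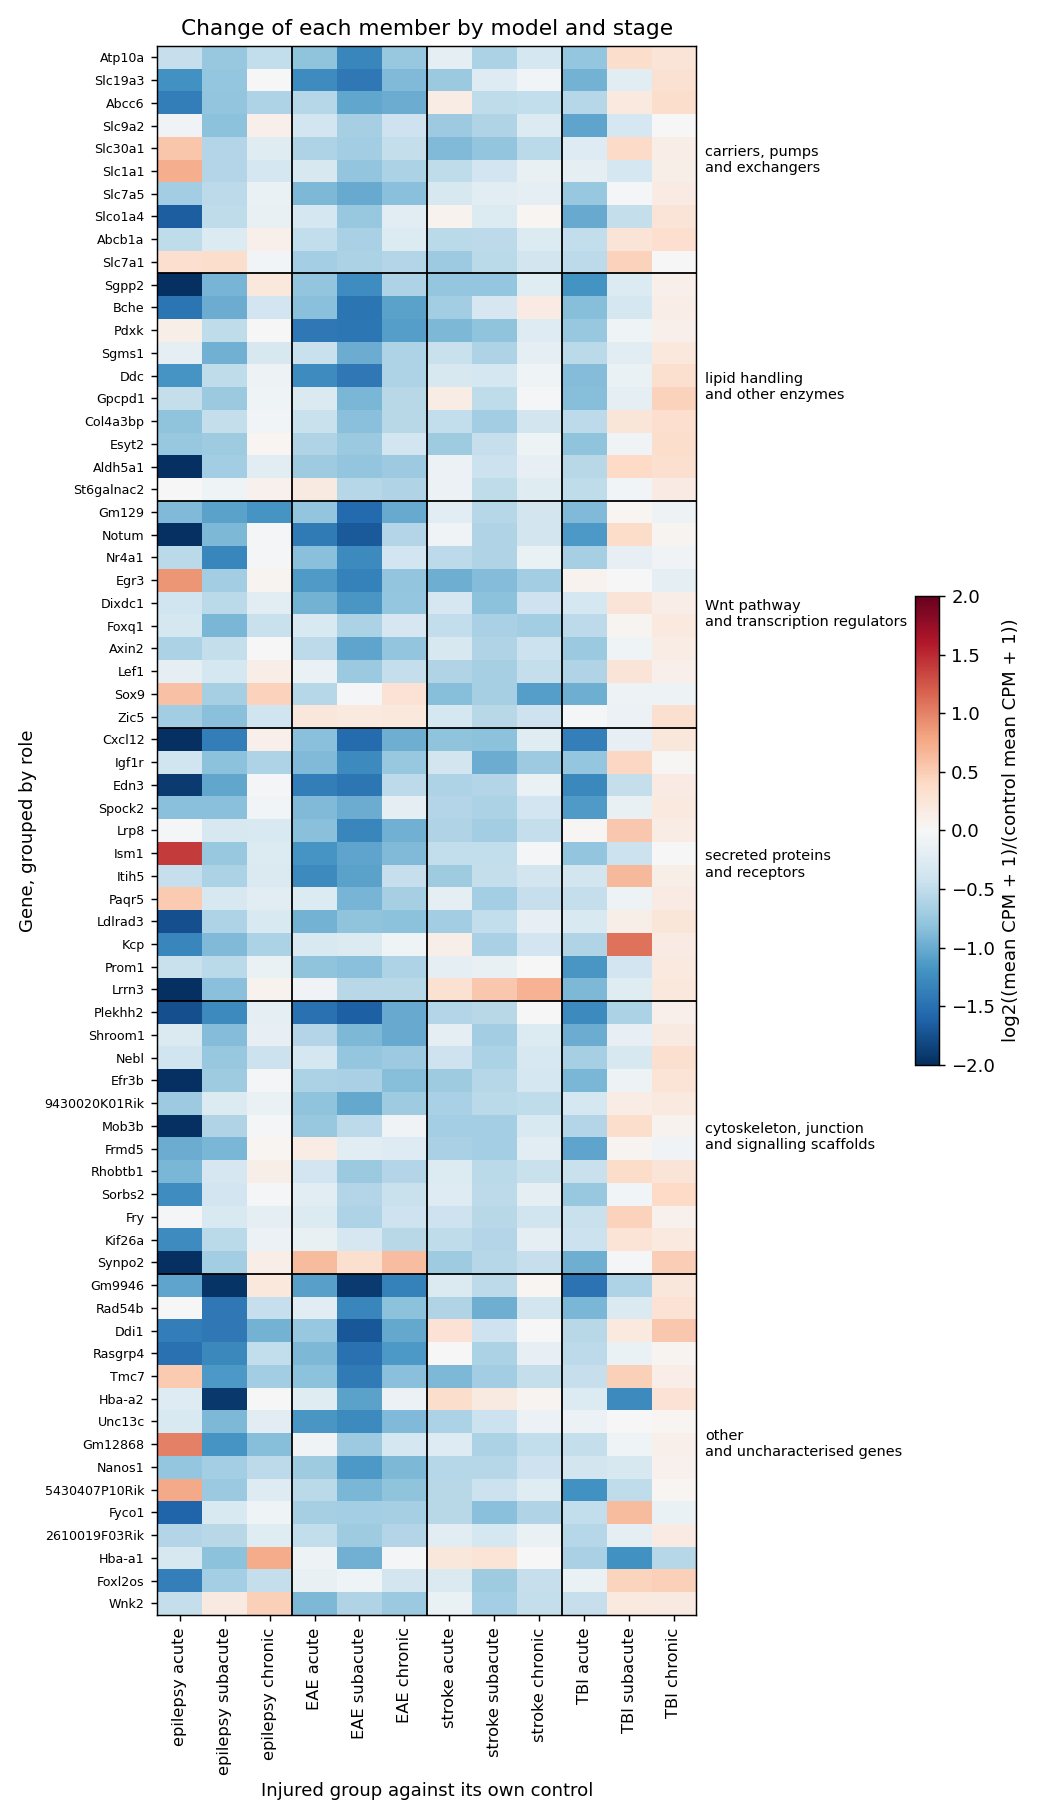
Change of each of 69 of the 71 members (rows, by role) in each injured group against its own control (columns), as log2((mean CPM + 1)/(control mean CPM + 1)), with colour ending at -2 and 2. Subacute epilepsy, EAE and stroke are blue for nearly all members because the rule chose them so. Acute TBI, which the rule did not use, is at or below -0.5 for 47 of those drawn (5.95% of all genes). Acute epilepsy holds 38 of them at -0.5 or lower (36.2% of all genes) and 9 at 0.5 or higher (12.0%).

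Among the carriers, Slco1a4, an organic anion transporter that carries thyroid hormone, bile salts and steroid conjugates, had 3511 and 2530.3 CPM in Brain Endo, at most 33.6 CPM in the other organs and 32.2 to 42.4 CPM in whole brain. In epilepsy it was at 2919, 2539 and 1984 CPM in controls, 816, 840.4 and 709.8 CPM in the acute stage, 1493, 1681 and 2086 CPM in the subacute stage and 2255, 2028 and 2402 CPM in the chronic stage. Only the acute libraries lay entirely below the controls. In stroke the same gene was at 2345, 2663 and 2161 CPM in controls, 2799, 2332 and 2411 CPM in the acute stage and 1977, 1876 and 2096 CPM in the subacute stage. The acute stroke libraries overlapped the controls and the subacute ones lay below all of them.

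Slc19a3, the thiamine (vitamin B1) transporter, had 319 and 322 CPM in Brain Endo and at most 4.32 CPM in the other organs. It was at 217, 221 and 254 CPM in epilepsy controls and 99.8, 98.1 and 99.7 CPM in acute epilepsy, at 227, 245 and 216 CPM in EAE controls and 75.5, 73.9 and 137 CPM in acute EAE, and at 243, 236 and 229 CPM in stroke controls and 149, 131 and 144 CPM in acute stroke. Every acute library lay below every control library in the 3 models. In the chronic stage its libraries overlapped the controls in epilepsy (209.7, 218 and 271 CPM) and stroke (264, 214 and 204 CPM) and lay below them in EAE (85.0, 143 and 146 CPM).

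Slc7a5, which forms the large neutral amino acid carrier LAT1, stayed lower in EAE at every stage. Its EAE controls were at 1263, 1336 and 955 CPM, the acute libraries at 483, 609 and 809 CPM, the subacute at 585, 634 and 548 CPM and the chronic at 505, 683 and 797 CPM. Abcb1a, which encodes the drug efflux pump P-glycoprotein, had smaller differences: a subacute log2 of -0.28 in epilepsy, -0.64 in EAE and -0.53 in stroke. Slc1a1, a carrier of glutamate and cysteine, was higher than control in acute epilepsy, at 475, 506 and 457 CPM against 287, 301 and 276 CPM in controls, and lay below them at 176, 209 and 192 CPM in the subacute stage. Slc7a1, a carrier of arginine and lysine, was a member through EAE (-0.63) and stroke (-0.55), and was higher than control in subacute epilepsy (0.36).

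Among the enzymes, Sgpp2, a phosphatase of sphingosine 1-phosphate, was at 221, 174 and 136 CPM in epilepsy controls, 25.9, 31.7 and 26.3 CPM in the acute and 218, 179 and 219.7 CPM in the chronic stage. Its acute libraries lay far below, and its chronic libraries level with, the controls. Bche, butyrylcholinesterase, was at 106, 144 and 129.9 CPM in EAE controls and at 52.9, 41.7 and 41.6 CPM in the subacute and 57.1, 48.3 and 73.7 CPM in the chronic stage, so that the chronic libraries still lay below all controls. Sgms1, a sphingomyelin synthase, had a subacute log2 of -0.97 in epilepsy, -0.99 in EAE and -0.61 in stroke, and in acute epilepsy its libraries (1429, 1443 and 1332 CPM) lay just below its controls (1479, 1528 and 1804 CPM).

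Members of the Wnt pathway included Lef1, a transcription factor that binds beta-catenin, Axin2, a feedback inhibitor that is itself a Wnt target, Notum, an enzyme that inactivates Wnt ligands, and the transcription factor Foxq1, which marks brain endothelium. Axin2 was at 48.7, 52.2 and 53.6 CPM in EAE controls, and at 19.6, 33.2 and 19.8 CPM in the subacute and 29.1, 34.3 and 24.9 CPM in the chronic stage. Lef1 was at 323, 326 and 319 CPM in EAE controls and at 151, 257 and 173 CPM in the subacute stage. In both genes all subacute and chronic EAE libraries lay below the controls. In subacute epilepsy their log2 was only -0.47 for Axin2 and -0.35 for Lef1, short of the limit.

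The transcription group also held genes that respond quickly to stimulation. Nr4a1, an orphan nuclear receptor and immediate early gene, was at 418, 874 and 614 CPM in epilepsy controls and 227, 256 and 290.0 CPM in the subacute stage. Egr3, a zinc-finger immediate early factor, was higher than control in acute epilepsy (18.9, 16.3 and 17.6 CPM against 3.21, 13.5 and 10.5 CPM) and lower in acute EAE (8.95, 16.7 and 25.3 CPM against 41.1, 37.9 and 36.9 CPM). Their levels differed between the 2 Brain Endo libraries, 575 and 1986 CPM for Nr4a1 and 43.6 and 94.9 CPM for Egr3. Gm129, a circadian repressor now named Ciart, was lower at every stage of epilepsy, with 50.8, 67.3 and 64.2 CPM in controls and 20.7, 28.01 and 29.8 CPM in the chronic stage, a log2 of -1.19.

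Spock2, a proteoglycan of the testican family that is secreted into the matrix, had 8430.2 and 8998 CPM in Brain Endo, 257 to 335 CPM in whole brain and at most 35.9 CPM in the other organs. It was at 3734, 4173 and 3649 CPM in epilepsy controls, 2143, 1971 and 2375 CPM in the acute, 2083, 2216 and 2162 CPM in the subacute and 3852, 3204 and 4081 CPM in the chronic stage. Acute and subacute libraries lay below all controls and chronic libraries overlapped them. Edn3, the vasoactive peptide endothelin 3, was at 105, 122 and 108 CPM in epilepsy controls and 21.3, 27.6 and 37.5 CPM in the acute stage, and at 77.3, 86.9 and 64.9 CPM in EAE controls and 31.2, 26.6 and 24.9 CPM in the subacute stage.

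Cxcl12, the chemokine that binds CXCR4 and holds leukocytes at the vessel wall, had the largest mean subacute difference of any member with an established function. In epilepsy it was at 2165, 2345 and 1539.5 CPM in controls, 511, 509.6 and 467 CPM in the acute, 1165, 710.2 and 445 CPM in the subacute and 1743, 2449 and 2306 CPM in the chronic stage. In EAE it was at 1267, 1339 and 1486 CPM in controls, 298, 669.9 and 1325 CPM in the acute, 519.9, 387 and 492 CPM in the subacute and 416, 960.0 and 696 CPM in the chronic stage. The subacute log2 was -1.38 in epilepsy, -1.55 in EAE and -0.81 in stroke, and the chronic log2 was 0.10, -0.98 and -0.25. Of the receptors, Igf1r, the receptor of insulin-like growth factor 1, met the condition in all 3 models at -0.81, -1.28 and -0.99, and Prom1, the membrane glycoprotein CD133, in epilepsy at -0.54 and EAE at -0.83 but not in stroke at -0.16. Lrrn3, a leucine-rich repeat membrane protein, was above control in subacute stroke at 0.54.

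Among the scaffold genes, Plekhh2, a protein with pleckstrin homology and FERM domains that binds actin, was at 77.3, 77.2 and 38.9 CPM in epilepsy controls and 27.0, 27.4 and 23.6 CPM in the subacute stage, and at 77.3, 95.4 and 69.1 CPM in EAE controls and 26.3, 23.3 and 26.1 CPM in the subacute stage. Its subacute libraries lay below all controls in both models. 9430020K01Rik, now named Jcad, a protein of endothelial cell junctions, had a subacute log2 of -0.28 in epilepsy, -1.02 in EAE and -0.54 in stroke. Above control in subacute EAE were 2 members, Zic5 (0.20) and Synpo2, an actin-binding protein, whose libraries lay at 30.5, 30.005 and 31.1 CPM in controls and at 36.3, 36.4 and 42.8 CPM in the subacute stage, above all controls, while in epilepsy and stroke its subacute log2 was -0.70 and -0.57.

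In the remaining group, Gm9946, with no function given in the files, had the lowest mean subacute value of all members, with 14.2, 17.5 and 12.2 CPM in epilepsy controls and 4.26, 3.74 and 1.02 CPM in the subacute stage, and 13.8, 17.1 and 17.8 CPM in EAE controls and 5.41, 1.18 and 4.16 CPM in the subacute stage. Rad54b, a protein of homologous recombination repair, was at 126, 143 and 123 CPM in epilepsy controls, 112, 125 and 155 CPM in the acute and 53.9, 55.8 and 33.3 CPM in the subacute stage, so only its subacute libraries lay clear of the controls in this model. Ddi1 rests on 1 library of the reference group, with 37.0 and 3.23 CPM in Brain Endo, as does Aldh5a1, the enzyme that clears succinic semialdehyde, with 73.1 and 6.73 CPM. Hba-a1 and Hba-a2 encode alpha globin of red blood cells and are near-identical copies, so reads may be split between them. They differed between Brain Endo libraries (28.8 and 244 CPM for Hba-a1), as did the sum of 7 red blood cell markers that includes both (211 and 1930.2 CPM), and the part of red blood cells in their values was not tested. Foxl2os lies antisense to Foxl2, and reads of the pair cannot be told apart without strand, whose use is not given in the sources used here.

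Promoters are shown for the 4 members with the largest mean subacute difference among those in the RefSeq promoter table, and for 3 transporters in which a searched motif was found, the latter chosen after the matches were seen. The table gave a promoter, from 250 bases before to 50 bases after the gene start, for 51 of the 71 members. Its build is GRCm38.p6, while the deposited values are on mm9 per the submitters' processing notes, so these positions are not those of the counted features. Sequences run 5′ to 3′ along the gene, and capitals mark the motif in either orientation: CTTTGAT for TCF/LEF, TGTTTAC for forkhead and AACAAT for SOX factors.
Cxcl12, chr6:117168285-117168584, plus strand, TCF/LEF match in capitals: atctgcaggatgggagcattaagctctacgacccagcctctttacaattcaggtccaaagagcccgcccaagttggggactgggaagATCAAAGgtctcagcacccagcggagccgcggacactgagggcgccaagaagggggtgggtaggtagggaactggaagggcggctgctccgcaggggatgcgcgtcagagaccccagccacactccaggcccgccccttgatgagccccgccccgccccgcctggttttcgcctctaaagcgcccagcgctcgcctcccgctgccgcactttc
Slc19a3, chr1:83038399-83038698, minus strand, TCF/LEF match in capitals: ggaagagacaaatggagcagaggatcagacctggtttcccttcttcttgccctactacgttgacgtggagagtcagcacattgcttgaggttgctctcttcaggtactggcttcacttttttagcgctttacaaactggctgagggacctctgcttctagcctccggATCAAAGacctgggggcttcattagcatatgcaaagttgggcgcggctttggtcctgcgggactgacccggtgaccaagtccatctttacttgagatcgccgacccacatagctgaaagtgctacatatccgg
Abcb1a, chr5:8566841-8567140, plus strand, forkhead match in capitals: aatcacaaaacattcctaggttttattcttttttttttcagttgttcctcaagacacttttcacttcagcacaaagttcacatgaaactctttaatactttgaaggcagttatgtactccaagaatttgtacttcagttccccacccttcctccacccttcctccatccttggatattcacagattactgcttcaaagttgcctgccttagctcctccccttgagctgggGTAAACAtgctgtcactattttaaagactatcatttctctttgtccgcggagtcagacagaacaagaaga
Slco1a4, chr6:141856171-141856470, minus strand, SOX match in capitals: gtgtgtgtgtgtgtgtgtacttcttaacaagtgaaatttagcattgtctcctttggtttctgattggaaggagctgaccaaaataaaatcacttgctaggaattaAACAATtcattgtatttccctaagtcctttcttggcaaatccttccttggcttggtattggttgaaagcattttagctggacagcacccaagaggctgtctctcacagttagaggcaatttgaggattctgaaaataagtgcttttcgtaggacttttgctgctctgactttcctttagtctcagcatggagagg
Gm9946, chr6:117559447-117559746, plus strand, no match: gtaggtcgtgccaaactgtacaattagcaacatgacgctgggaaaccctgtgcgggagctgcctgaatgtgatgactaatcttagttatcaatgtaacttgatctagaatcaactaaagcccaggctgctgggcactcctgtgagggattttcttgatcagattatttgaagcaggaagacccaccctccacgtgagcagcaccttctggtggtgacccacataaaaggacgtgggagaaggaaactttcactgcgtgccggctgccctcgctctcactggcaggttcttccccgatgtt
Plekhh2, chr17:84511645-84511944, plus strand, no match: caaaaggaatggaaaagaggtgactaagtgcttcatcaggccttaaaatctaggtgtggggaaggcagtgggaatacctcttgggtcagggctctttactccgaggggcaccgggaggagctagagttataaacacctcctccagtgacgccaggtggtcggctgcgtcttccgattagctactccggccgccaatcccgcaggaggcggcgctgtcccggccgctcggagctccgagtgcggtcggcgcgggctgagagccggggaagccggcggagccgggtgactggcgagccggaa
Ddi1, chr9:6266498-6266797, minus strand, no match: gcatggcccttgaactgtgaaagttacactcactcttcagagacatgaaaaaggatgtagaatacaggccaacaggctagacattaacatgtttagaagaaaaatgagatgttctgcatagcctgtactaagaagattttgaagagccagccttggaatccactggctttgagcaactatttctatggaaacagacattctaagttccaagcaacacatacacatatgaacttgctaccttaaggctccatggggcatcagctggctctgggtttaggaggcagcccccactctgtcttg
The motifs were searched on both strands, and none contains another. CTTTGAT was in 2 of 51 member promoters (3.92%), those of Cxcl12 and Slc19a3, and in 3.72% of all 27025 promoters. TGTTTAC was in that of Abcb1a (1.96% against 3.55%) and AACAAT in that of Slco1a4 (1.96% against 10.9%). TGACGTC, the cAMP response element, was in those of Fyco1 and Tmc7 (3.92% against 3.33%), and CCGGAAG, read by ETS factors, in 0 of 51 against 9.12%. Motifs can share letters at their ends, as the SOX motif read on the other strand shares 4 with the forkhead motif, but no promoter of a member held 2 different motifs. A match is a description of the letters and shows neither binding nor use.

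The stages are described for each model with its own controls, from values that the rule used in part. In epilepsy the lowest of the 4 stage means was the acute one for 35 members and the subacute one for 34. In EAE it was the subacute one for 55 and the acute one for 8 (59 and 2 without EAE acute library 1). In stroke it was the subacute one for 39 and the acute one for 26. The rule chose genes with low subacute means, and these counts were not made over all genes, so nothing particular to the members is read from them. Of the members at -0.5 or lower when subacute, the chronic mean was still at -0.5 or lower for 8 of 56 in epilepsy, 47 of 64 in EAE and 8 of 51 in stroke. Over all 71 members the median chronic log2 was -0.13 in epilepsy, -0.62 in EAE and -0.28 in stroke, against 0.06, -0.03 and -0.15 for all genes. Counted at -0.5 or lower, 8 members were so in chronic epilepsy (5.38% of all genes), 48 in chronic EAE (8.66%) and 8 in chronic stroke (8.16%). The count for chronic stroke was 33 without chronic library 1, 22 without control library 2, 5 without control library 3 and 4 without chronic library 3. That for chronic epilepsy was 14 without chronic library 3. The share of all genes was not counted with these libraries left out. Mitochondrial ribosomal RNA took 26.0, 40.4 and 36.9% of reads in chronic stroke libraries 1, 2 and 3, against 23.6 to 31.0% in stroke controls. Its part in the count of 33 was not tested. The contrasts of chronic stages with controls share control libraries with the rule, so they carry no test.

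At the acute stage, 39 members were at -0.5 or lower in epilepsy, where 36.2% of all genes were so and the median of all genes was itself -0.25. The member median was -0.63 and that of the other 94 brain-enriched genes -0.64. In acute epilepsy 9 members were at 0.5 or higher, against 12.0% of all genes and 12 of the other 94 brain-enriched genes. A rise was thus not particular to the members. Among the 9 were Ism1 (1.40), Gm12868 (1.01), Egr3 (0.88), 5430407P10Rik, now named Proser2 (0.75), and Slc1a1 (0.73). In acute EAE 42 members were at -0.5 or lower (6.02% of all genes), with a median of -0.62 against 0.08 for all genes. Without acute library 1 the count was 25 (4.33%), with a median of -0.36 against 0.18. Mitochondrial ribosomal RNA took 34.4% of reads in acute EAE library 1, 12.2 and 14.8% in libraries 2 and 3 and 17.4 to 18.7% in EAE controls. All acute EAE libraries lay below all controls for 38 members (6.82% of all genes), and for 40 (8.46%) without acute library 1. In acute stroke the count was 35 (8.47%) with a median of -0.50 against -0.10 for all genes, and all acute libraries lay below all controls for 40 members (19.7%) and above them for 0 (7.42%). Mitochondrial ribosomal RNA took 35.8 to 38.1% of reads in acute stroke and 23.6 to 31.0% in stroke controls, and with it left out of the totals the acute stroke count was 9.

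Markers of endothelial and other cells moved beside these stages. The median log2 of 16 endothelial markers against control was 0.02 in subacute epilepsy, -0.28 in subacute EAE and -0.35 in subacute stroke, where 1, 2 and 6 of the 16 were at -0.5 or lower. Their sum ranged from 13215 to 14441 CPM in subacute epilepsy against 13243 to 14260 CPM in controls, from 10933 to 12112 CPM in subacute EAE against 14905 to 15100 CPM, and from 9301 to 11586 CPM in subacute stroke against 12872 to 14989 CPM. The endothelial sums of subacute and control libraries thus overlapped in epilepsy and did not in EAE and stroke. In acute stroke the endothelial sum was 10102 to 11384 CPM, below all controls, with a median log2 of -0.25. In acute epilepsy it was 15346 to 16209 CPM, above all controls. There the median log2 was -0.22, with 5 of 16 markers at -0.5 or lower and 3 at 0.5 or higher. In acute EAE the endothelial sum ranged from 8680 to 15638 CPM, across the range of the controls, with a median log2 of -0.14. In chronic EAE, beside the lower members, the endothelial sum was 9014 to 13264 CPM, below all controls, with a median log2 of -0.44 and 5 of 16 markers at -0.5 or lower. Mural markers summed to between 4678 and 5394 CPM in EAE controls, 2904 and 3200 CPM in the subacute and 2046 and 2237 CPM in the chronic stage, without overlap, and 9 of 16 were at -0.5 or lower in chronic EAE. All 7 red blood cell markers, of which Hba-a1 and Hba-a2 are members, were at -0.5 or lower in subacute EAE, with a median of -0.97. Of 11 fibroblast markers, all 11 were at 0.5 or higher in subacute EAE (sum 874 to 4002 CPM against 394 to 1163 CPM) and 9 in subacute stroke (537.5 to 1271 CPM against 56.4 to 133 CPM). In chronic EAE they summed to between 1652 and 9273 CPM. Of 16 microglia and macrophage markers 13 were at 0.5 or higher in subacute epilepsy, where they summed to between 88.9 and 570.2 CPM against 48.2 to 294 CPM in controls. The part of these cells in the members' values was not tested.

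**Figure D3:**
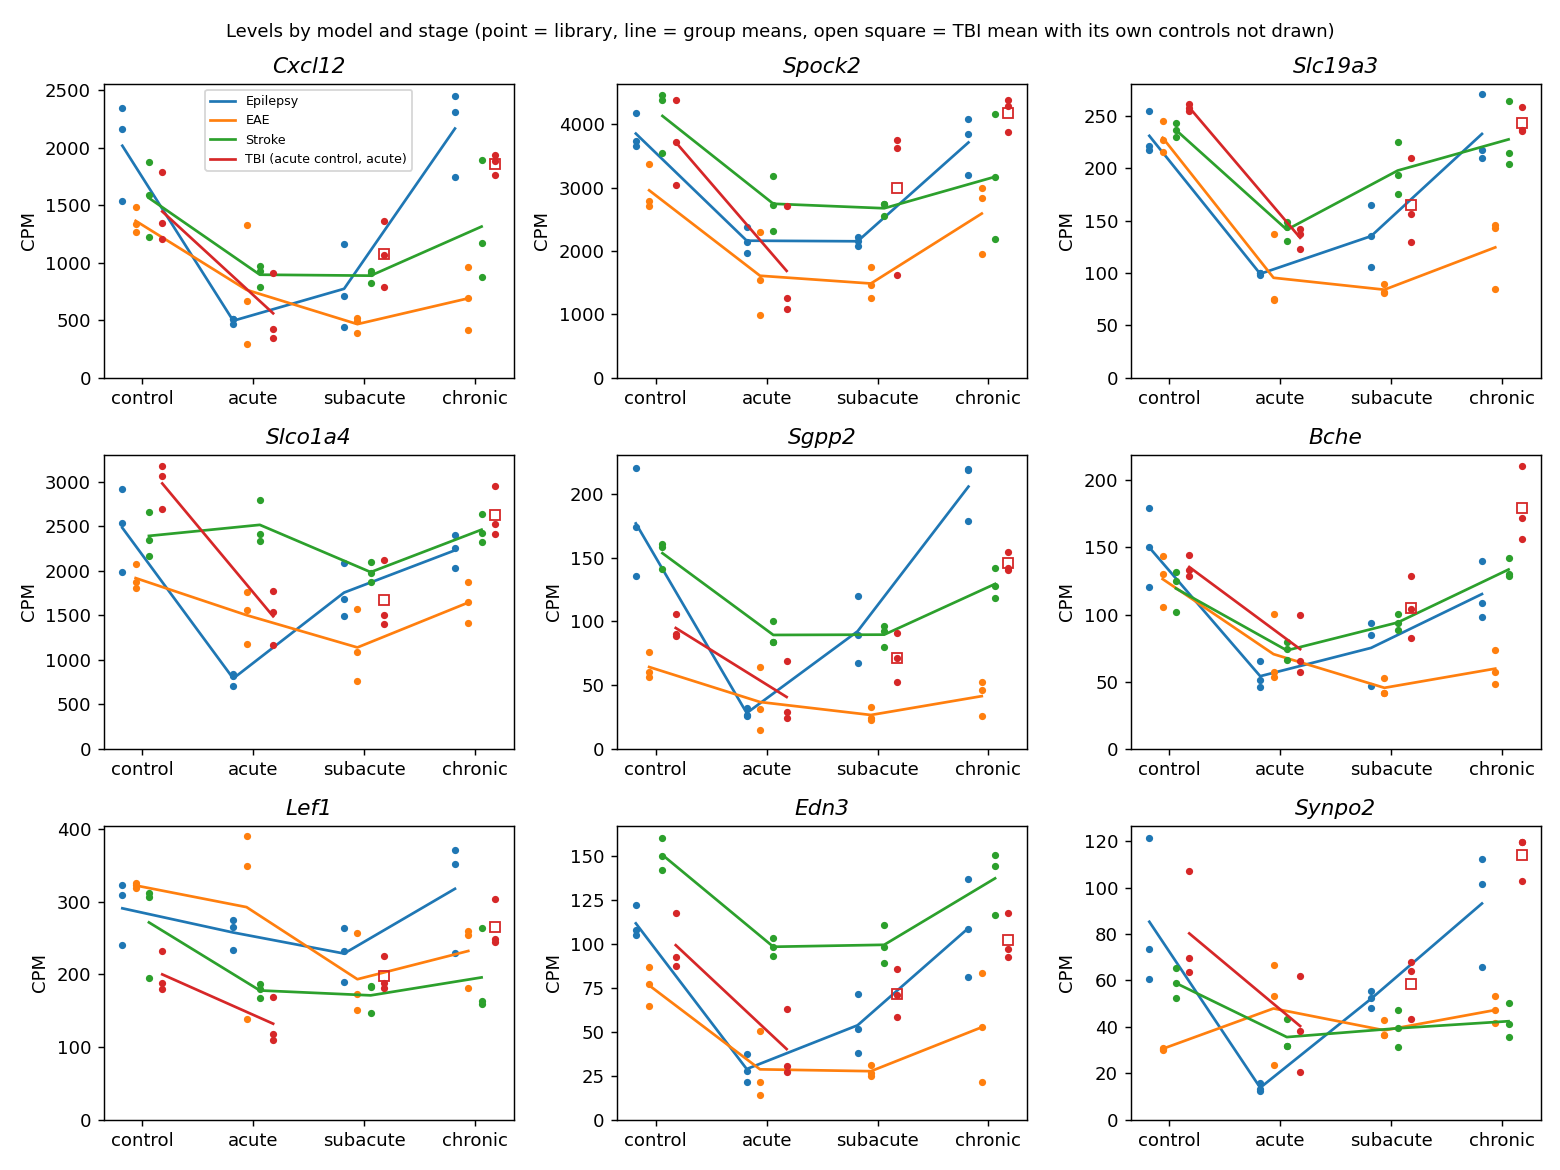
CPM of 9 members by stage in each library (points) with lines through group means for epilepsy, EAE and stroke; for TBI the line joins the acute control to the acute group, and open squares are subacute and chronic means, whose own controls are not drawn. Epilepsy shows the deepest acute trough for Sgpp2 (25.9 to 31.7 CPM) and Synpo2 (12.3 to 15.8 CPM) with chronic libraries near control, while EAE stays low to the chronic stage for Bche (48.3 to 73.7 CPM).

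The change from acute to chronic could be tested, since the rule used neither group. In epilepsy, 35 members rose and 9 fell (limma on log2(CPM + 1) over 13740 genes, adjusted p under 0.05, 3 against 3 libraries), against 35.7% of all genes that rose and 10.7% that fell. Of the other 94 brain-enriched genes 55 rose and 11 fell, so neither direction was particular to the members. Among the largest rises were those of Sgpp2 by 2.83 ± 0.20 (log2 fold ± SE, adjusted p = 9.26e-08), Synpo2 by 2.64 ± 0.23, Efr3b, which anchors a lipid kinase at the plasma membrane, by 2.51 ± 0.16, and Mob3b by 2.49 ± 0.35. The falls included Gm12868 by 1.80 ± 0.30, the secreted protein Ism1 by 1.68 ± 0.21, Tmc7 by 1.28 ± 0.23, Slc1a1 by 1.08 ± 0.11 and 5430407P10Rik by 1.01 ± 0.15 on the log2 scale. The median of all genes rose by 0.30 in this contrast. With edgeR and TMM on the recovered reads 26 members rose and 17 fell. In that fit 3172 of all 13740 genes rose and 2708 fell, and of the other 94 brain-enriched genes 41 rose and 21 fell.

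In EAE, 0 members passed the same test (limma, 14508 genes, of which 0.703% rose and 0.0482% fell). An unadjusted limma p under 0.05 was found for 5, a count not made over all genes. EdgeR with TMM called 1 member lower, while of all genes 5 were lower and 119 higher. The limma count was 1 without acute library 1, where 179 of 14457 genes fell and 213 rose. It was 2 without chronic library 1, where 115 of 14464 genes fell and 510 rose. In stroke, 3 members rose and 0 fell (13474 genes, 0.334% rose and 0.416% fell). Bche rose by 0.86 ± 0.12 (limma, adjusted p = 0.00368), from 74.2, 66.4 and 79.2 CPM to 130.3, 128 and 142 CPM. Slc19a3 rose by 0.68 ± 0.13 (adjusted p = 0.0237), and Esyt2, a tether between endoplasmic reticulum and plasma membrane that moves lipids, by 0.62 ± 0.12 (adjusted p = 0.0361). With 1 library left out the stroke count was 1 without acute library 1, acute library 2 or chronic library 1. In those fits 18 of 13366, 75 of 13384 and 21 of 13412 genes rose.

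The difference between models in this change was tested with an interaction term, added after the counts were seen. Between epilepsy and EAE it passed for 31 members, against 38.6% of all genes in either direction. The log2 change was higher in epilepsy than in EAE for 24 of them and lower for 7, which need not have risen in EAE. Between epilepsy and stroke it passed for 27 members (21 higher and 6 lower in epilepsy), against 32.3% of all genes. Between EAE and stroke it passed for 0 members with limma, against 0.649% of all genes. It passed for 1 without EAE acute library 1 (1.8% of all genes) and for 2 without EAE chronic library 1 (2.96%).

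TBI took no part in the rule, so its contrasts were tested. In acute TBI 26 members fell and 0 rose (limma on log2(CPM + 1), 14130 genes, adjusted p under 0.05, 3 against 3 libraries), while 1.95% of all genes fell and 3.5% rose. The estimate was below 0 for 69 of 71 members, and 53 had an unadjusted limma p under 0.05, a count not made over all genes. As log2 of group means, 69 members and 7650 of 14130 genes were below 0. All 3 acute libraries lay below all 3 controls for 43 members and above them for 0, against 11.4% and 11.2% of all genes. Without acute library 1 these were 60 members (25.6% of all genes) and 0 (14.9%). As log2 of group means, 48 members were at -0.5 or lower (5.95% of all genes), or 60 (10.5%) without acute library 1, and the median was -0.60 against -0.38 for the other 94 brain-enriched genes and -0.03 for all genes. Of those 94 brain-enriched genes 18 fell and 1 rose, so a fall was not confined to the members, and the difference between the 2 sets was not tested.

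**Figure D4:**
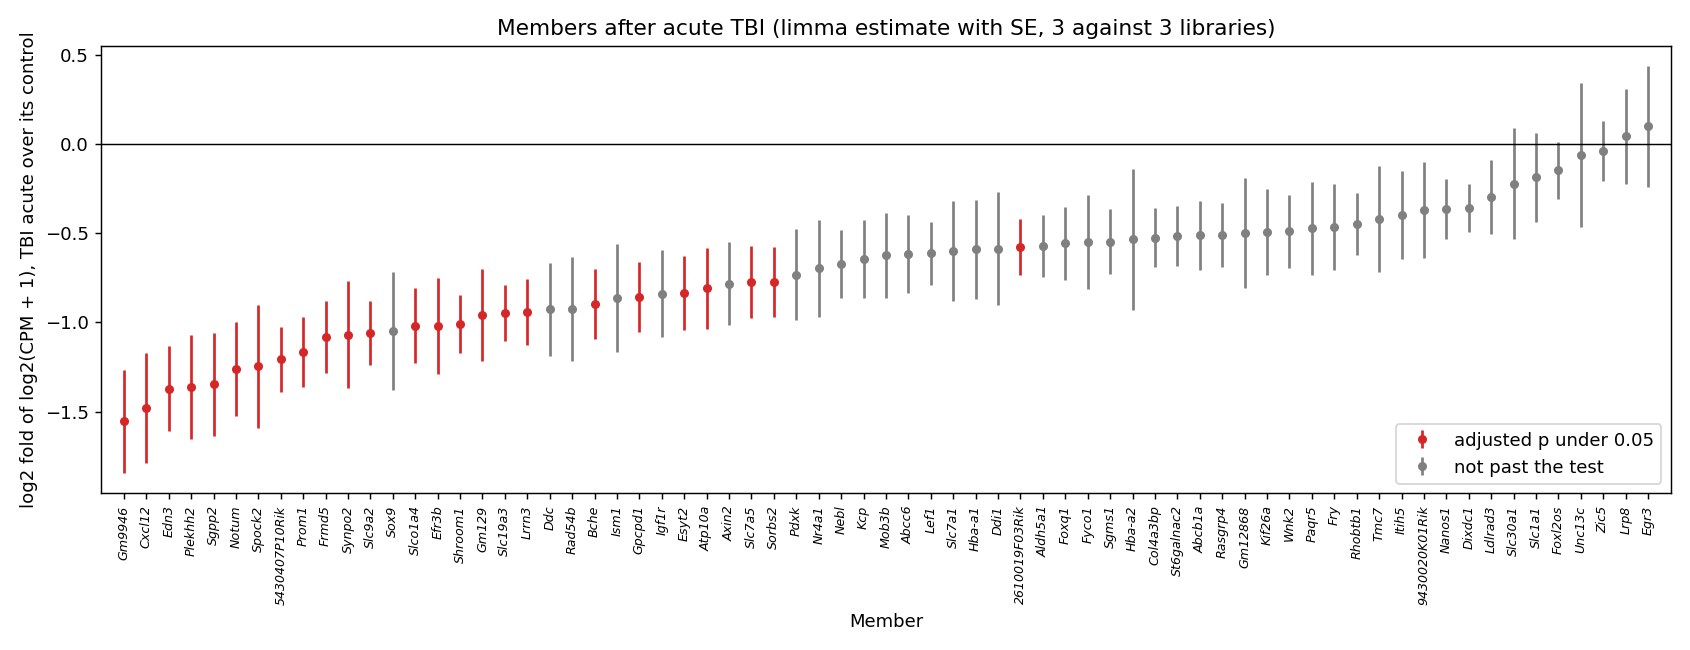
Log2 fold of each of 69 of the 71 members in acute TBI over its control (points, limma estimate; bars, SE; 3 against 3 libraries), ordered by size, with the 25 of them that passed adjusted p under 0.05 in red. Estimates run from -1.55 for Gm9946 to 0.10 for Egr3, and 67 of the 69 drawn lie below 0. As log2 of group means, 7650 of 14130 genes are below 0.

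Slc19a3 was at 258, 261 and 255 CPM in controls and 142, 122 and 137 CPM in acute TBI, and fell by 0.95 ± 0.16 on the log2 scale (limma, adjusted p = 0.00252). The groups did not overlap.

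Prom1 was at 1447, 1339 and 1195 CPM in controls and 687, 510.3 and 581 CPM in acute TBI, and fell by 1.17 ± 0.20 (limma, adjusted p = 0.00268). Edn3 was at 118, 92.5 and 87.5 CPM in controls and 62.7, 27.3 and 30.4 CPM in acute TBI, and fell by 1.37 ± 0.24 (adjusted p = 0.00338). Shroom1, an actin-binding protein, was at 47.2, 45.8 and 53.5 CPM in controls and 30.9, 19.3 and 22.2 CPM in acute TBI, and fell by 1.01 ± 0.16 (adjusted p = 0.00218). In these genes no acute library reached the controls, and library 1 of the acute group was the highest of the 3.

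Slc9a2, a sodium-proton exchanger, fell by 1.06 ± 0.18, 5430407P10Rik by 1.21 ± 0.18, the FERM-domain protein Frmd5 by 1.08 ± 0.20 and Lrrn3 by 0.94 ± 0.19 on the log2 scale. Gm9946 fell by 1.55 ± 0.29, from 9.27, 8.30 and 5.73 CPM to 2.70, 0.72 and 2.98 CPM. In Gm9946 the groups did not overlap either, at levels of few reads.

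Cxcl12 was at 1208, 1343 and 1784 CPM in TBI acute controls and 911, 342 and 427 CPM in acute TBI, and fell by 1.48 ± 0.31 (limma, adjusted p = 0.0106). Slco1a4 was at 3179.6, 3065 and 2692 CPM in controls and 1768, 1162 and 1531 CPM in acute TBI, and fell by 1.02 ± 0.21 (adjusted p = 0.00989). Spock2 was at 3045, 3719 and 4383 CPM in controls and 2717, 1084 and 1259 CPM in acute TBI, and fell by 1.25 ± 0.35 with an adjusted p of 0.047, close to the threshold. In all 3 genes acute library 1 lay nearest to the controls.

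By role, 5 of 10 carriers fell (Slco1a4, Slc7a5, Slc19a3, Slc9a2 and the phospholipid flippase Atp10a). So did 5 of 11 lipid handling genes and other enzymes (among them Sgpp2, Bche, Gpcpd1 and Esyt2) and 2 of 11 Wnt and transcription genes (Notum and Gm129). The others that fell were 5 of 12 secreted proteins and receptors, 6 of 12 scaffold genes and 3 of 15 others. Without acute library 1 these counts were 8, 9, 8, 8, 9 and 5 in the same order. In that fit 569 of 14093 genes fell, against 275 of 14130 with all libraries. Lef1 (-0.61 ± 0.18, limma adjusted p = 0.0557) and Axin2 (-0.78 ± 0.23, adjusted p = 0.0614) had negative estimates that missed the threshold, as did Igf1r (-0.84 ± 0.24, adjusted p = 0.0577). Abcb1a (-0.51 ± 0.19, adjusted p = 0.15) and Foxq1 (-0.56 ± 0.21, adjusted p = 0.137) were further from it. Egr3 (0.10) and Lrp8 (0.04), a receptor of reelin and apolipoprotein E, were the 2 members with a positive estimate.

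The count rested on single libraries. Without acute library 1, the one nearest to the controls, 47 members were called, without acute library 2 10, without acute library 3 15, and without control library 1 or 2 16 and 15. Calls over all genes moved too, from 275 of 14130 lower with all libraries. Lower were 569 of 14093 without acute library 1, 54 of 14087 without acute library 2 and 121 of 14090 without acute library 3. Without control library 1 or 2 they were 96 of 14074 and 86 of 14098. Called with every library left out in turn and under every other setting were 10 members, among them 5430407P10Rik, Shroom1, Slc19a3, Slc9a2, Prom1, Edn3, Gm9946, Frmd5 and Lrrn3. In acute TBI the endothelial markers summed to 11426 to 13063 CPM against 12349 to 14361 CPM in controls, with a median log2 of -0.36 and 3 of 16 at -0.5 or lower. All 11 fibroblast markers were at 0.5 or higher (sum 208 to 676 CPM against 113 to 311 CPM), and 7 of 16 mural markers were so, with sums of 1646 to 9502 CPM against 1069.6 to 7971 CPM. Their part in the members' values was not tested.

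In the subacute stage of TBI, limma called 0 members lower and 1 higher, against 0.106% and 1.25% of all genes. An unadjusted limma p under 0.05 was found for 9 members, a count not made over all genes. The 1 was Kcp, a secreted regulator of bone morphogenetic protein signalling, at 18.9 and 27.5 CPM in controls and 47.6, 61.0 and 41.7 CPM in subacute TBI, which rose by 1.08 ± 0.24 (adjusted p = 0.038). It was not called without subacute library 1 or 2 or without either control library. The median of the limma estimates over the members was -0.10, against 0.05 for all genes, and lay between -0.26 without subacute library 1 and 0.07 without subacute library 3. As log2 of group means, 5 members were at -0.5 or lower (2.67% of all genes), and all subacute libraries lay below all controls for 10 members (11.4% of all genes) and above them for 5 (16.4%). Of the fibroblast markers 9 of 11, and of the microglia and macrophage markers 15 of 16, were at 0.5 or higher, and their part was not tested. Mitochondrial ribosomal RNA took 30.6, 38.0 and 47.3% of reads in subacute libraries 1, 2 and 3, whose member means were 6.72, 6.43 and 6.11. Hba-a1 had 211 and 180.4 CPM in controls and 92.7, 75.2 and 84.0 CPM in subacute TBI, beside red blood cell marker sums of 3133 to 3706 CPM and 1461 to 1592 CPM, and did not pass the test (adjusted p = 0.0762).

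In the chronic stage limma called 0 members in either direction, and 0% of all genes. An unadjusted limma p under 0.05 was found for 2 members, a count not made over all genes, and edgeR on the recovered reads called 0. The median over the members was 0.17 and that over all genes 0.13, and 1 member was at -0.5 or lower (0.396% of all genes). All chronic libraries lay below all controls for 1 member (2.94% of all genes) and above them for 19 (20.5%). The acute and subacute effects of TBI were compared directly as the difference of the 2 contrasts. With limma 0 members passed, against 0.0142% of all genes in the direction of a deeper acute fall and 0.00708% in the other. The difference was negative for 66 of 71 members and had an unadjusted p under 0.05 for 36. These 2 counts were not made over all genes. The median difference was -0.69 over the members, -0.37 over the other 94 brain-enriched genes and -0.08 over all genes. Without acute library 1, 11 members passed, all toward a deeper acute fall, while of all 14093 genes 91 passed in that direction and 46 in the other.

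The functions measured around the members came from 9 gene lists of barrier biology. Of 33 solute carriers measured, 19 met the organ condition and 6 were members; of 8 ABC pumps, 3 and 2; of 22 Wnt pathway genes, 9 and 5; of 18 lipid and retinoid genes, 7 and 4; of 18 matrix and secreted genes, 7 and 3; of 24 transcription factors, 8 and 3; and of 26 receptors and signalling genes, 7 and 3. Of 12 junction genes 2 met the organ condition and 0 were members, and of 12 ectoenzymes and peptidases 0 met it. In all, the lists held 57 brain-enriched genes, of which 23 were members.

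In acute TBI, limma called 9 of the 33 solute carriers lower, 1 of 8 ABC pumps, 2 of 20 Wnt pathway genes, 4 of 11 ectoenzymes, 3 of 24 transcription factors, 4 of 26 receptors and 0 of 11 junction genes, and none of these lists had a gene called higher. Of the lipid list 4 of 17 fell and 1 rose, and of the matrix list 4 of 18 fell and 3 rose. The medians of the log2 estimates ranged from -0.48 for the solute carriers and the Wnt pathway to -0.04 for the lipid list, beside -0.03 for all genes in the same fit. Without acute library 1, limma called 16 solute carriers, 3 ABC pumps, 9 Wnt pathway genes, 4 ectoenzymes, 6 transcription factors, 6 receptors and 1 junction gene lower, and 1 transcription factor higher. The lipid list then had 4 lower and 1 higher and the matrix list 5 and 3. Over all genes, 569 of 14093 were lower and 540 higher in that fit, against 275 and 494 of 14130 with all libraries.

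Brain Vascular was set against Whole Brain, 2 groups that the rule did not use. Besides endothelial cells, Brain Vascular held mural cells, whose markers summed to 4157 and 5185 CPM there, against 204 to 256 CPM in whole brain and 676 and 775 CPM in Brain Endo, and their part in the members' values was not tested. Of the 70 members in this fit, which left out Ddi1 for low values, 59 were higher and 6 lower in Brain Vascular than in Whole Brain (limma, 16200 genes, 2 against 4 libraries), against 28.9% of all genes higher and 37.5% lower. Of the other 94 brain-enriched genes, 80 were higher and 9 lower, so this pattern was not particular to the members. Slco1a4 was at 1990.2 and 2442 CPM in Brain Vascular, a log2 fold of 5.86 ± 0.20 over whole brain (adjusted p = 5.8e-08). Slc7a5 (5.85 ± 0.28), Prom1 (5.83 ± 0.23), Foxq1 (5.76 ± 0.38), Slc19a3 (5.55 ± 0.28) and Cxcl12 (5.53 ± 0.29) were nearly as far apart, and Spock2 was 3.55 ± 0.21 higher.

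The 6 members that were lower in vascular cells were Aldh5a1 (-3.50 ± 0.26), Wnk2, a kinase that regulates ion cotransport (-2.79 ± 0.31), Unc13c, a protein of synaptic vesicle priming (-2.28 ± 0.19), Sox9, a transcription factor that astrocytes also express (-1.21 ± 0.36), Frmd5 (-1.19 ± 0.20) and Dixdc1, a positive regulator of Wnt signalling (-1.15 ± 0.20), all with limma adjusted p of 0.0149 or lower. Unc13c, for example, had 14.5 CPM in both Brain Vascular libraries and 71.04 to 82.9 CPM in whole brain. Nanos1 (-0.43) and Egr3 (-0.30) were also below 0 and did not pass the test. In Brain Endo itself 5 of these, Dixdc1, Aldh5a1, Frmd5, Unc13c and Wnk2, had a lower mean than in whole brain. The 11 neuronal markers summed to 48.1 and 67.0 CPM in Brain Vascular, to 13.9 and 24.2 CPM in Brain Endo and to between 5829 and 6902 CPM in whole brain.

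**Figure D5:**
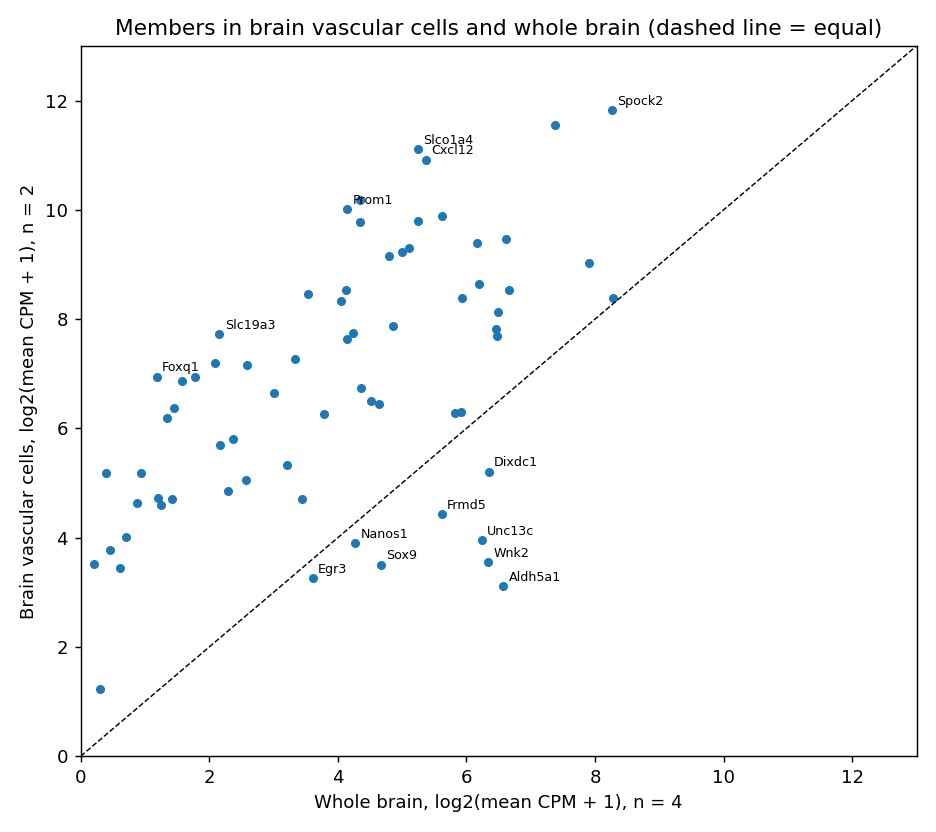
Mean level of 69 of the 71 members in whole brain (x axis, n = 4) and in Brain Vascular (y axis, n = 2), both as log2(mean CPM + 1), with the line of equal levels dashed. Most members lie far above the line, as Slco1a4, Cxcl12 and Slc19a3 do, and 8 lie below it, of which Aldh5a1, Wnk2 and Unc13c are the furthest.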

How the data were processed

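RNA of sorted cells and whole brain was sequenced in 68 libraries. The values used are CPM (counts scaled to a common library total), which the authors deposited in 1 table of 37991 lines with a column per library. The deposited table also holds the authors' BBB-Enriched class mark. Per the submitters' processing notes the build was mm9 and the tools were Subread, featureCounts and TopHat2 2.0.13, with no settings given. Of the values above 0, 100% were whole multiples of 1 read (tolerance 0.001 reads), so the whole reads and the depth, with a median of 27259699 reads, could be recovered. Where lines share a symbol, the one with the highest mean was used when counting symbols, and 25 symbols that read as dates or numbers were replaced by the name of their gene ID.

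The tests used limma 3.58.1 with a mean-variance trend in R 4.3.3 on log2(CPM + 1), with genes above 1 CPM in at least 3 libraries (2 in the fits with groups of 2) and Benjamini-Hochberg adjustment over all genes of the fit. Fold changes on this scale understate those of low genes. All TBI groups shared 1 fit, as did the stages of each other model. Alternatives were quantile normalization, totals without mitochondrial ribosomal RNA, no filter, no trend, a pseudocount of 0.1, a replicate block, edgeR 4.0.16 quasi-likelihood tests on the recovered reads with TMM or DESeq2 1.42.0 size factors, and leaving out each library. On simulated counts for the acute TBI comparison, limma recovered 86% of 100 genes changed by 1 on the log2 scale. It recovered 100% of 100 changed by 2, with 11 false calls among 14130 genes. The simulation gave all genes the same dispersion (spread between libraries), left genes of low level unchanged and held no library standing apart. Real acute TBI libraries differ in this, so these values do not measure the recovery in them. No 2 libraries of a group agreed within sampling noise.

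The members, the gene lists and the rule for named genes were chosen with earlier results of these data known. That rule took the members highest in Brain Endo, those with the largest mean subacute difference, the called members with the smallest adjusted p or largest change per test, up to 4 members per function list, and members higher in whole brain than in vascular cells. Some members that the rule took are counted but not reported here by name or drawn singly. Other named members were picked for their role or pattern after their values were seen. Promoters came from the RefSeq table on GRCm38.p6. Figures were drawn with matplotlib 3.10.9.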

Additional observations from a re-analysis of the deposited data

Results flagged for a closer look

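In whole brain, 1 of the 4 libraries lay far from the other 3 for Unc13c and for Wnk2. The gap to the nearest library, as a share of the whole range, was 0.846 for Unc13c, whose libraries were at 71.04, 82.9, 72.9 and 71.5 CPM, and 0.874 for Wnk2, at 91.5, 90.3, 86.5 and 51.7 CPM. Chance alone marks about 1 in 20 such groups, and 9 items were examined in this way. Both genes were lower in Brain Vascular than in every whole brain library.

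The change from acute to chronic differed between models by an interaction term, for 31 members between epilepsy and EAE and for 27 between epilepsy and stroke. With 1 library left out these counts ranged from 24 to 41 and from 23 to 30. Of all genes, 38.6% and 32.3% differed in the same tests, so nothing particular to the members is read from these counts.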

How the results depend on the processing

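None of the 139 member results called reversed its direction under any alternative run, but the member median did without single libraries: in subacute TBI it was -0.10, and 0.07 without subacute library 3, and in EAE from acute to chronic it was 0.01, -0.32 without acute library 1 and -0.14 without chronic library 2. The 71 members became 11 with a log2 limit of -1 and 43 with a ratio of 8, and ranged from 62 to 89 with 1 library left out. Members at -0.5 or lower in acute stroke were 35, but 12 with quantile normalization and 9 without mitochondrial ribosomal RNA, and those in chronic stroke were 8, but 4 and 4. Without the expression filter, members called were 14 in acute TBI (26 with it), 0 in subacute TBI (1 with it) and 1 in stroke from acute to chronic (3 with it). Subacute TBI gave 2 with quantile normalization and 2 without mitochondrial ribosomal RNA, and the acute against subacute TBI effect gave 1 with quantile normalization in place of 0. EAE from acute to chronic gave 1 in place of 0 with quantile normalization, without mitochondrial ribosomal RNA and with edgeR under either scaling. Stroke from acute to chronic gave 1 without trend and 6 with edgeR under either scaling. The cause was not tested.

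With 1 library left out, members at -0.5 or lower ranged from 37 to 43 (acute) and 6 to 14 (chronic) in epilepsy, 25 to 53 and 41 to 57 in EAE, and 28 to 40 and 4 to 33 in stroke. Members called ranged from 10 to 47 in acute TBI, 0 to 1 in subacute TBI, 0 to 0 in chronic TBI and 0 to 11 for the acute against subacute TBI effect. From acute to chronic they ranged from 35 to 41 in epilepsy, 0 to 2 in EAE and 1 to 3 in stroke, and for vascular against whole brain from 60 to 65. The differences between models ranged from 24 to 41, 23 to 30 and 0 to 2. A group left with 1 library was assumed to vary like the other groups of its fit. Of the 139 results, 24 were lost without the filter, and between 1 and 10 under each other setting that kept all libraries.

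A replicate block gave 27 members called in acute TBI, 0 in subacute TBI, 44 in epilepsy, 3 in stroke and 64 for vascular against whole brain. Libraries of the same number had correlated deviations of -0.09, -0.28 and -0.69 in acute TBI, of 0.43 and 0.41 in subacute TBI, where the block removed the 1 call, and of 0.25 and 0.15 in chronic TBI, and from -0.26 to 0.26 in the other comparisons. The labels do not say that a number marks a shared batch or animal.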
